A study of Mus musculus with 29 samples.

Results

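Meiosis and piRNA pathway genes were 35 mouse genes chosen by name, with earlier results of these data known, out of 20554 protein-coding genes on chromosomes 1 to 19. They comprised 15 meiosis genes, 14 piRNA genes and 6 other germ cell genes. What was measured is the chromatin mark H2Aub, histone H2A monoubiquitinated by Polycomb repressive complex 1 (PRC1), profiled by CUT&RUN. In this assay an antibody brings a nuclease to chromatin that carries the mark, and the DNA cut free there is sequenced. The values are a genome segmentation in which each stretch of mm10 carries an H2Aub type from 1 to 5. The types have no key, so a type number says nothing here of how much H2Aub a stretch carries.

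The series holds 29 libraries in 16 groups, 24 of H2Aub and 5 of H3K27me3, made from 1 to 300 oocytes or embryos each where the labels give a number. Germinal vesicle oocytes for H2Aub were Eed (fl/fl) on a B6/129 mixed background, with Gdf9-Eed (fl/fl) oocytes as the group lacking maternal Eed, a subunit of Polycomb repressive complex 2. Metaphase II oocytes were B6/DBA wild type, and so were the oocytes for H3K27me3. Embryos from the zygote to the epiblast had a B6/DBA (WT) or B6/129 mixed (Eed (fl/fl)) mother and a wild-type PWK father, and the mothers of the Eed knockout embryos were Gdf9-Eed (fl/fl). Embryos with PR-DUB control or overexpression came from the B6/DBA by PWK cross. The segmentation has no column for any library and no source used here names the libraries behind it, so depth is unknown, no replicate spread exists, and stages and genotypes were not compared. Counts of genes are therefore given as descriptions, without a test, beside the same share over all protein-coding genes.

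Meiosis genes build the machinery that pairs and recombines homologous chromosomes: cohesins and axis proteins, the synaptonemal complex that zips the axes together, and the enzymes that make and repair DNA breaks. The piRNA pathway loads small RNAs onto PIWI proteins, with Tudor domain proteins and helicases as scaffolds and processing factors, and silences transposons in germ cells. In embryonic stem cells and somatic cells many of these genes are silent, and the variant PRC1.6 complex, which carries the DNA-binding proteins MGA and E2F6, is known to bind their promoters.

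Within the chosen lists, the 15 meiosis genes lay mainly in type 1 and the 14 piRNA genes mainly in type 3. Among 32 further meiosis genes, described below, type 3 was more frequent than type 1 by the same rule. Type 1 held 37.5% of them and 35.7% of 14 further piRNA genes, so the contrast in type 1 did not recur there. Type 3 held 46.9% and 57.1%. A gene's type was the one with the largest share of its window, that is, its body with 20 kb on each side. Of the 15 meiosis genes, 9 (60.0%) took type 1, against 36.6% of all protein-coding genes, 4 took type 3 (26.7%, against 35.4%) and 2 took type 4 (13.3%, against 13.8%). Of the 14 piRNA genes, 10 (71.4%) took type 3, 2 took type 4, and 1 each took types 1 and 2, type 2 holding 4.60% of all protein-coding genes. No member took type 5, which held 9.62% of protein-coding genes. Over all 35 members the counts were 16 of type 3 (45.7%), 12 of type 1 (34.3%), 6 of type 4 (17.1%) and a single gene of type 2. The shares of the whole list in types 1 and 4 were thus near those of all genes. By the body alone, 10 of 15 meiosis genes took type 1 (37.2% of protein-coding genes), 10 of 14 piRNA genes took type 3 (33.8%), and the 35 members held 1 gene in type 2 (5.43%), 5 in type 4 (14%) and 1 in type 5 (9.54%).

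The mean shares of the window restate the contrast between the lists, since each gene's type was taken from these shares. Type 1 took a mean of 46.8% of the meiosis windows and 9.0% of the piRNA windows, against 35.1% over all protein-coding genes. Type 3 took a mean of 36.4% of the meiosis windows and 68.3% of the piRNA windows, against 35.6%. In the further lists described below the means were closer. There, type 1 took a mean of 39.3% of other meiosis and 39.9% of other piRNA windows, and type 3 took 43.1% and 46.4%. Members are longer than most genes, with a median body of 49.0 kb against 17.6 kb, and a longer window can hold more types. The whole window lay in 1 type for 10 of the 35 members (28.6%, against 34.4%), and 25 of the 35 bodies held some type 3 (71.4%, against 50.7%). Among members of at least 20 kb, 7 of 9 meiosis genes took type 1 and 9 of 12 piRNA genes took type 3. Over all protein-coding genes of that length the shares were 41.5% in type 1 and 30.8% in type 3.

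**Figure D1:**
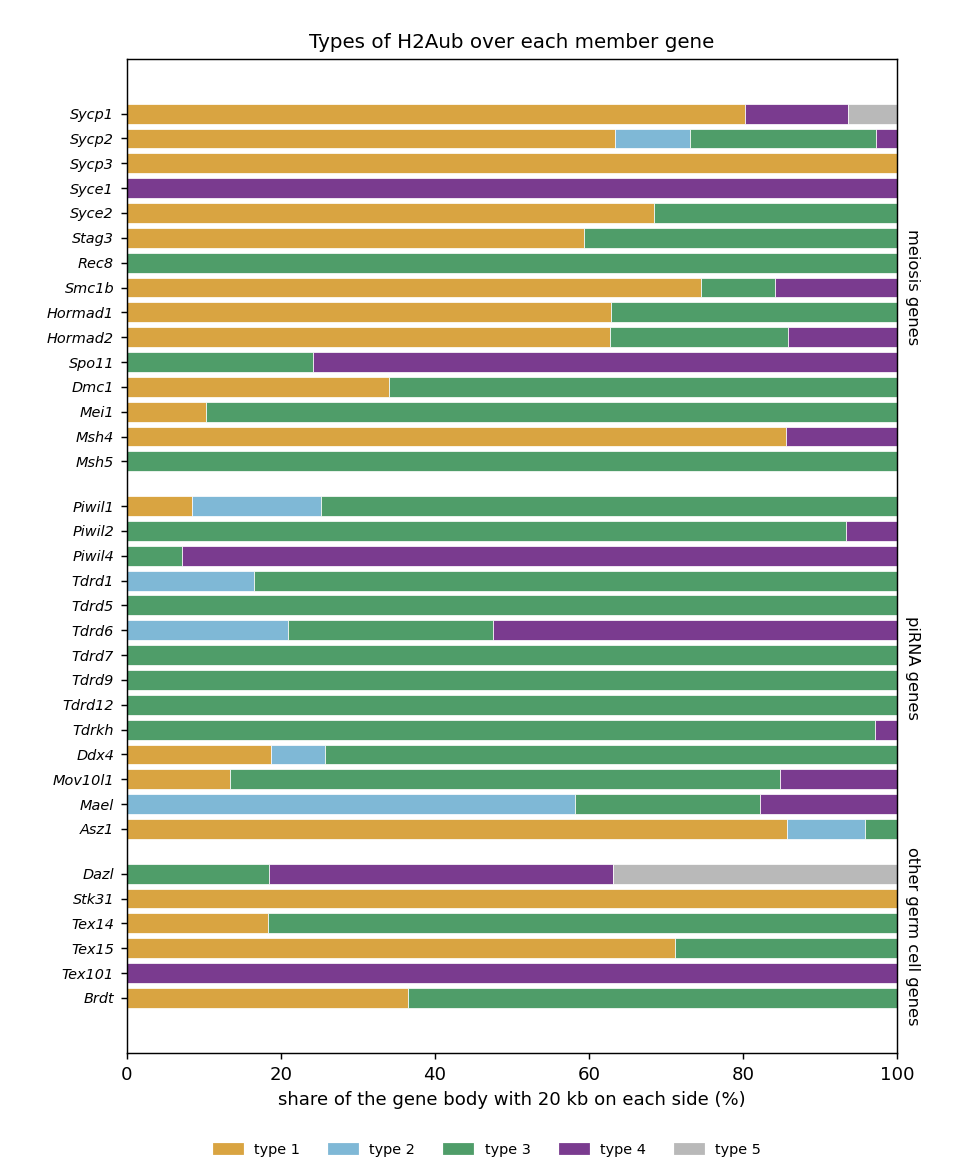
Share of the gene body with 20 kb on each side (x axis, %) in each of the 5 types (colours) for the 35 members, 1 bar per gene, by list. Type 1 is the largest part of 9 of 15 meiosis bars, and type 3 of 10 of 14 piRNA bars.

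At their start sites the lists were more alike, since most members of both started in type 3. RefSeq promoters gave a start and strand for 31 members and 16456 protein-coding genes, and the type was that of the 5 kb bin holding the most upstream start. Of the 31 members, 22 (71.0%) started in type 3, against 39.8% of protein-coding genes, 5 in type 1 (against 32.2%) and 4 in type 4 (against 14.9%). No member started in type 2 (3.58% of genes) or type 5 (9.47%). By list, 9 of 14 meiosis genes, 10 of 12 piRNA genes and 3 of 5 other germ cell genes started in type 3. Among members of at least 20 kb, 18 of 23 started in type 3, against 39.9% of protein-coding genes of that length. No start is given for Spo11, Piwil2, Tdrd6 and Tex15.

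Type 3 gave way to type 1 within a few kb of the start in 6 of the 14 meiosis genes (42.9%), which had a start in type 3 and a body mostly in type 1. They were Sycp2, Stag3, Smc1b, Hormad1, Hormad2 and Dmc1. The combination was found in 6.54% of protein-coding genes and in none of the 12 piRNA genes. Among genes of at least 20 kb, 6 of 9 meiosis genes had it, against 11.5% of protein-coding genes. In these 6 genes type 3 reached 1.08 to 5.32 kb downstream of the start (median 3.57 kb) and 3.04 to 184.9 kb upstream. Types are set in bins of 5 kb, so distances under 5 kb depend on where in its bin the start falls. In Sycp2, Stag3, Smc1b and Hormad2 type 3 ended with the bin that held the start. All protein-coding genes with such a start and body had a like reach, with a median of 4.36 kb downstream, so the distance is not particular to these genes. In Dmc1 type 3 returned after a type 1 segment of 25 kb. In all, 7 of 14 meiosis genes had a start of another type than the body (15.9% of protein-coding genes), Sycp1 being the other one, against 1 of 12 piRNA genes, Mael. At a length of at least 20 kb it was 7 of 9 meiosis genes, against 27.5% of protein-coding genes. In the further lists described below, genes of any length were counted. Start and body differed in type in 7 of 25 other meiosis genes (28.0%) and 1 of 8 other piRNA genes.

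**Figure D2:**
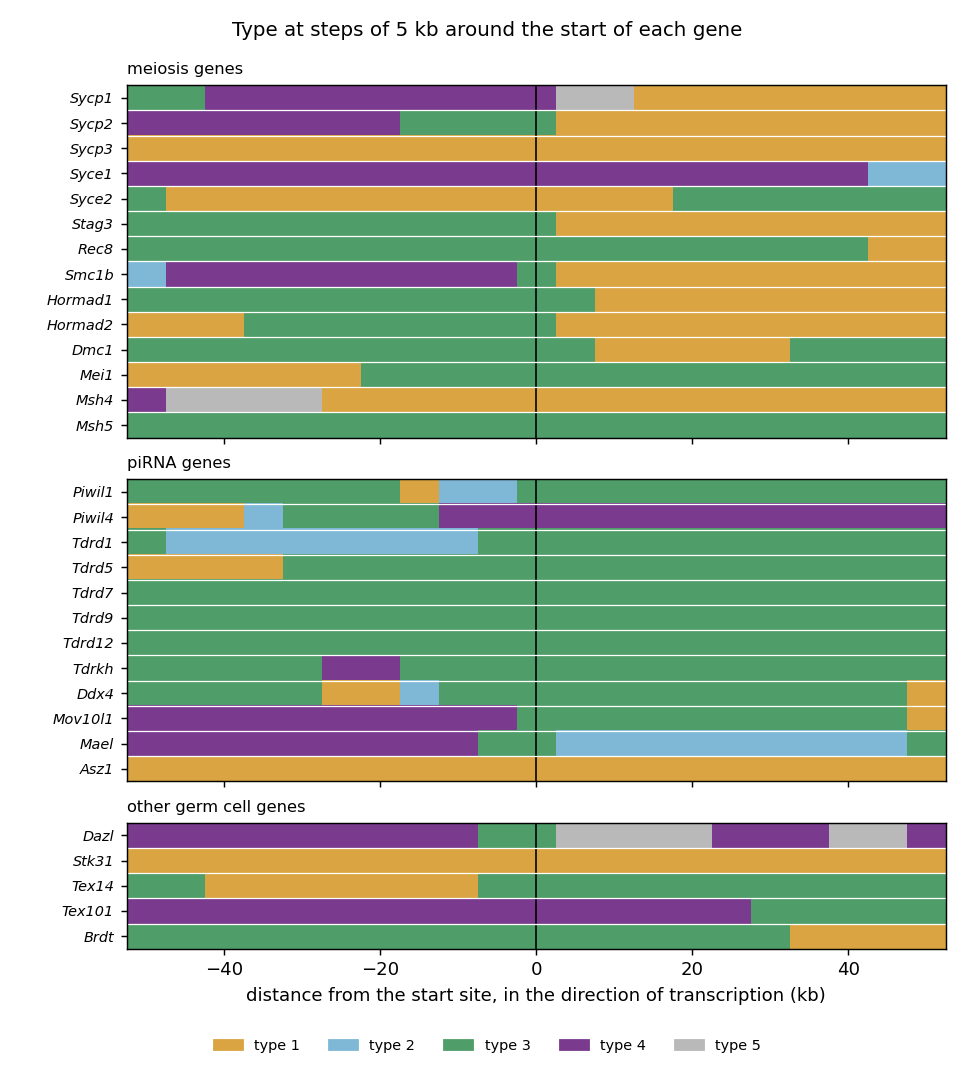
Type (colour) at steps of 5 kb from 50 kb upstream to 50 kb downstream of the start site (x axis, kb, in the direction of transcription) for the 31 members with a start, 1 row per gene. In Sycp2, Stag3, Smc1b, Hormad1, Hormad2 and Dmc1 the colour changes from type 3 to type 1 just after the start, while in most piRNA genes type 3 runs on.

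By distance, the share of meiosis genes in type 3 was 57.1% at 5 kb upstream, 64.3% at the start, 35.7% at 5 kb downstream and 21.4% at 10 kb downstream. Type 1 rose over the same steps from 21.4% at the start to 50.0% at 5 kb and 71.4% at 15 kb downstream. For piRNA genes type 3 stood at 83.3% at the start and at 75% from 5 to 45 kb downstream, and type 1 stayed at 8.33% over that stretch. Over all protein-coding genes type 3 went from 39.8% at the start to 33.7% at 10 kb downstream, and type 1 from 32.2% to 37.8%. With 14 and 12 genes, 1 gene is worth over 7 percentage points in the meiosis curve and over 8 in the piRNA curve.

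**Figure D3:**
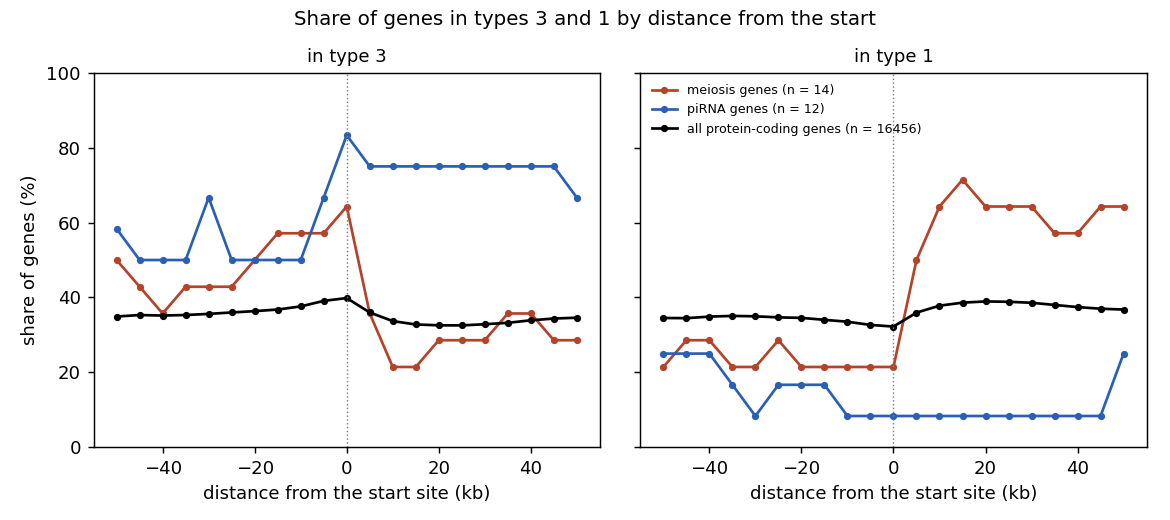
Share of genes (y axis, %) in type 3 (left) and type 1 (right) by distance from the start site (x axis, kb, positive downstream), for 14 meiosis genes, 12 piRNA genes and 16456 protein-coding genes. Type 3 falls from 64.3% to 21.4% within 10 kb in meiosis genes and from 83.3% to 75% in piRNA genes.

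The promoters, 250 bases before to 50 after the start from RefSeq on GRCm38.p6 (the build of mm10), were searched on both strands for the letters of the PRC1.6 factors. These were the E-box CACGTG, which MGA can bind, and the E2F core TCCCGC, known as a site of E2F factors. Of 31 member promoters, 12 held CACGTG (38.7%, against 7.97% of all promoters of that length), 13 held TCCCGC (41.9%, against 26.4%) and 6 held both (19.4%, against 2.82%). The 6 with both were Sycp1, Sycp3, Stag3, Hormad1, Ddx4 and Mael. CACGTG stood in 4 of 14 meiosis and 6 of 12 piRNA promoters, and TCCCGC in 9 of 14 and 3 of 12. A match of letters is a description and shows no binding.

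The 5 promoters below run from 5′ to 3′ on the gene's own strand, with the motifs in capitals. The first 3 are, for each type at the start, the member of highest CG ratio with a motif: Stk31 (type 1, chr6:49395289-49395588, plus strand), Tdrd5 (type 3, chr1:156303299-156303598, minus) and Sycp1 (type 4, chr3:102936051-102936350, minus). Hormad1 (type 3, chr3:95559427-95559726, plus) and Mael (type 3, chr1:166238695-166238994, minus) were added after their values were seen, as type 3 starts with both motifs and a body of another type. Stag3 also meets this description and is not printed.
Stk31: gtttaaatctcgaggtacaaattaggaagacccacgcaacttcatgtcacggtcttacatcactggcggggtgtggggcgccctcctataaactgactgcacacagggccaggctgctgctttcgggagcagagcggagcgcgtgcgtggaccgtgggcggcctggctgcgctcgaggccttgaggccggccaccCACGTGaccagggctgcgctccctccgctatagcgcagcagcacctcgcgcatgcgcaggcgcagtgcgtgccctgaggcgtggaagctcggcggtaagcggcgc
Tdrd5: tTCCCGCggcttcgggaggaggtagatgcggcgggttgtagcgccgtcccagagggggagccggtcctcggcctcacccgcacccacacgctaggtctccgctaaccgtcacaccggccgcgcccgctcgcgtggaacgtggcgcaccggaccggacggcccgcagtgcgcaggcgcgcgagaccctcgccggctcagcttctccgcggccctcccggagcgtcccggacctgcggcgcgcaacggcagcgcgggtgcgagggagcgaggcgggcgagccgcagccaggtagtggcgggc
Sycp1: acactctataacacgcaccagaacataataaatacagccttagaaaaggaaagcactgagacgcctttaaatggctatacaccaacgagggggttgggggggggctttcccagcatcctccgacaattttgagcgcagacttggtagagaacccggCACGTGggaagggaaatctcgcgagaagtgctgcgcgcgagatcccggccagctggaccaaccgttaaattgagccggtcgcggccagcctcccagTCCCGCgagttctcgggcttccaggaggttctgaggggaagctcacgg
Hormad1: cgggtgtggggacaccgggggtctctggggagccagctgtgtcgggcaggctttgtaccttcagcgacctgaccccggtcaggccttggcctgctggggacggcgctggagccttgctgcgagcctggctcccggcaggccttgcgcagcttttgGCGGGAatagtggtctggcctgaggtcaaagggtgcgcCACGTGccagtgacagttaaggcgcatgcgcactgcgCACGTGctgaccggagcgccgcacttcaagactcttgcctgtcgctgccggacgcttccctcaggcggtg
Mael: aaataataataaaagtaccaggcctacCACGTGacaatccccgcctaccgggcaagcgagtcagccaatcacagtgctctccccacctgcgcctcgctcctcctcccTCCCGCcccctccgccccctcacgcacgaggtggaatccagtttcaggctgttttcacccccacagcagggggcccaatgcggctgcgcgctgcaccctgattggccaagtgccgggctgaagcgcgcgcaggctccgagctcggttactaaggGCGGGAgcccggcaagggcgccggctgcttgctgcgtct

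In the Sycp1 promoter the E-box began 94 bases before the start and the E2F core 2 bases after it. Hormad1 held 2 E-boxes, at 57 and 20 bases before the start, and Mael 1 E-box and 2 E2F cores. The Tdrd5 promoter was the richest in CG of all members, with 48 CG dinucleotides and a ratio of observed to expected CG of 1.11.

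Among the members, CG content differed little between the types at their starts, with few starts outside type 3. The median ratio was 0.70 for the 5 starts in type 1, 0.71 for the 22 in type 3 and 0.66 for the 4 in type 4, against 0.60 over all promoters. Across all promoters, however, the ratio varied with the start type. Types 1 and 3 had close medians there (0.68 and 0.67), while type 4 had a lower one (0.49). The lowest medians belonged to types 2 (0.34) and 5 (0.19), where no member started. Within type 3 the members spanned from 0.23 in Tdrd7 to 1.11 in Tdrd5. In all, 21 of 31 members lay above the median of all promoters. Among these, 10 held CACGTG (11.5% of all promoters above that median), 12 held TCCCGC (43.7%) and 6 held both (5.01%). Both motifs were thus more frequent among CG-rich promoters in general, and TCCCGC in particular. The share of 43.7% is to be set beside the 12 of 21 CG-rich members with TCCCGC, not beside the count over all 31 members.

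**Figure D4:**
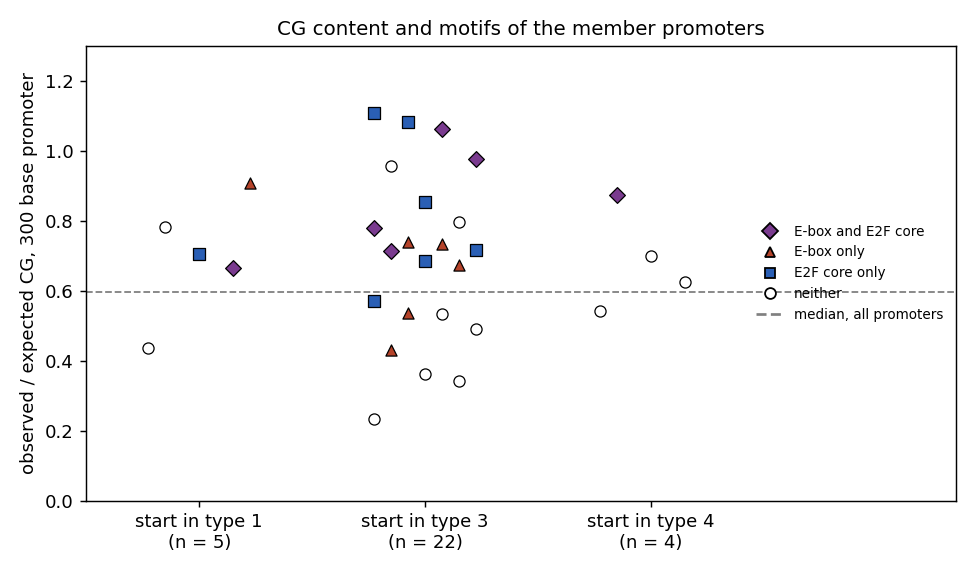
Ratio of observed to expected CG (y axis) in the 300 base promoters of the 31 members, by type at the start (x axis), with the shape giving the motifs found. Points of all 3 types spread around the dashed line, the median of all promoters (0.60), from 0.23 to 1.11 in type 3.

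The synaptonemal complex genes took type 1 in 4 of 5 cases. Sycp1, the transverse filament protein gene (chromosome 3, 102818499 to 102936100), was 90.6% type 1, 8.50% type 5 and 0.94% type 4 over its body. Its start lay in a type 4 segment of 45 kb that reached 43.9 kb upstream, and a type 5 segment of 10 kb separated this from the type 1 body. Sycp2, an axial element gene (chromosome 2, 178345295 to 178407776), was 95.6% type 1, with its start in a type 3 segment of 20 kb that bordered a type 4 segment of 265 kb upstream. Sycp3, its partner in the axial element (chromosome 10, 88459587 to 88473236), lay with its whole window inside a type 1 segment of 155 kb. Of the central element genes, Syce2 had a body wholly in type 1, and Syce1 (chromosome 7, 140777229 to 140787854) lay with its whole window inside a type 4 segment of 105 kb.

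All 3 meiotic cohesin genes started in type 3 and differed in their bodies. Rec8, the kleisin subunit (chromosome 14, 55618002 to 55625395), had its whole window in type 3. Stag3 (chromosome 5, 138272514 to 138312397) was 68.7% type 1 and 31.3% type 3, and its RefSeq promoter lies 7.995 kb inside the annotated body, with the gene's lower end in the same type 3 segment. Smc1b (chromosome 15, 85064689 to 85131957) was 97.1% type 1, and its start lay in a type 3 segment of a single bin, 5 kb, between type 4 upstream and type 1 downstream. That bin also holds the start of Ribc2, so the type cannot be assigned to either promoter. It was the 1 shared bin among the 31 member starts, against 11.7% of the 16456 protein-coding genes with a start. Only the most upstream starts of these genes were counted, so other starts in a bin would be missed.

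The HORMA domain genes, whose proteins mark unsynapsed axes, had the same layout. Hormad1 (chromosome 3, 95559677 to 95587863) was 81.1% type 1 and 18.9% type 3, and Hormad2 (chromosome 11, 4345801 to 4441198) 89.1% and 10.9%. Type 3 ran 59.7 kb upstream of the Hormad1 start and 38.9 kb upstream of the Hormad2 start.

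The recombination genes were spread over 3 types. Spo11, which makes the meiotic DNA breaks (chromosome 2, 172977379 to 172993576), lay wholly in a type 4 segment of 355 kb, with 24.2% of its window in type 3. Dmc1, the strand exchange recombinase gene (chromosome 15, 79561497 to 79605159), was 57.3% type 1 and 42.7% type 3 over its body but 65.9% type 3 over its window, so its type turns with the stretch used. Mei1, needed for break formation, and Msh5 had bodies wholly in type 3. Msh4, whose protein pairs with that of Msh5 (chromosome 3, 153857141 to 153906138), had its body wholly in type 1.

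The 3 PIWI genes were in types 3 and 4. Piwil1 (chromosome 5, 128736071 to 128755474) had its body wholly in type 3, starting near the edge of a segment of 115 kb, with type 2 upstream. Piwil2 (chromosome 14, 70372477 to 70436898) was wholly in type 3, and its window was 93.4% type 3 and 6.61% type 4. Piwil4, the nuclear PIWI gene of fetal male germ cells (chromosome 9, 14701776 to 14740672), lay wholly in a type 4 segment of 95 kb.

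Of the 7 Tudor domain genes in the piRNA list, 6 had bodies wholly in type 3: Tdrd1, Tdrd5, Tdrd7, Tdrd9, Tdrd12 and Tdrkh. Their proteins bind methylated arginines of PIWI proteins or help to trim and load piRNAs. The whole windows of Tdrd5, Tdrd7, Tdrd9 and Tdrd12 lay in type 3, in segments of 165 to 250 kb, and Tdrd1 lay in a type 3 segment of 380 kb, the longest at any member start in type 3. Tdrd6, a chromatoid body protein gene (chromosome 17, 43615334 to 43631846), was the exception among these 7, at 58.5% type 4 and 41.5% type 3 over its body. The 7 are not every gene with a Tudor domain. Stk31, counted here with the other germ cell genes, also has one and lay wholly in type 1.

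Helicase and scaffold genes were mixed. Ddx4, the germ cell RNA helicase gene (chromosome 13, 112598333 to 112652633), was 87.7% type 3, and Mov10l1, the helicase that starts piRNA processing (chromosome 15, 88982891 to 89055152), 79.2%, both with the rest in type 1. Asz1, a mitochondrial scaffold gene (chromosome 6, 18050964 to 18109061), lay wholly in a type 1 segment of 240 kb. Mael (chromosome 1, 166201385 to 166238744) was 90.0% type 2, the one member in that type, and started in a type 3 segment of 10 kb between type 4 upstream and type 2 downstream.

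Among other germ cell genes, Dazl, an RNA-binding regulator of translation (chromosome 17, 50279393 to 50293620), held 3 types in its window. Its body was 74.6% type 5 and 25.4% type 3, and its window was 44.7% type 4, 36.9% type 5 and 18.4% type 3. Its start lay in a type 3 segment of 10 kb with a type 4 segment of 160 kb upstream and a type 5 segment of 20 kb downstream. Tex101, a sperm fertility gene (chromosome 7, 24668012 to 24672050), had its whole window in type 4. Stk31, a Tudor domain kinase-like gene, had its whole window in a type 1 segment of 230 kb, and Tex15, a transposon silencing gene, was 82.4% type 1. Tex14, an intercellular bridge gene, was 86.7% type 3, and Brdt, the testis bromodomain gene, 60.6% type 3 and 39.4% type 1.

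Type 3 segments at member starts could be narrow. Smc1b, Mael and Dazl, 3 of the 22 starts in type 3, lay in segments of 10 kb or shorter, against 4.81% of all type 3 starts, and each had type 4 as the next type upstream. Type 4 was next upstream at 9 of the 22 (26.0% of all type 3 starts), the others being Sycp2, Rec8, Dmc1, Tdrd7, Tdrkh and Mov10l1. Type 1 was next downstream at 15 of the 22 (58.8% of all). A type 4 bin lay within 20 kb of 10 of the 31 starts (32.3%, against 22.7% of genes). Type 4 entered the windows of 15 of the 35 members (42.9%, against 28.3% of protein-coding genes), and type 3 those of all 14 piRNA genes (67.2% of protein-coding genes). These shares were not matched for length, and member windows are longer than most. In the further lists described below, type 4 entered 31.25% of other meiosis and 28.6% of other piRNA windows. Type 3 entered 90.6% and 92.9% of them.

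Further genes of both pathways came from a list written with earlier results known. Among its meiosis genes type 3 outnumbered type 1 by window, and type 1 outnumbered type 3 by body. Of 32 other meiosis genes, 12 took type 1 by window (37.5%, against 36.6% of protein-coding genes), 15 type 3 (46.9%, against 35.4%), 2 type 4 and 3 type 5. By body, 15 took type 1 (46.9%, against 37.2%) and 10 type 3. Of 14 other piRNA genes, 8 took type 3 by window (57.1%, against 35.4%), 5 type 1 (35.7%, against 36.6%) and 1 type 2. The genes named next are placed by window. In type 1 were Ankrd31 and Ccnb1ip1, a break formation and a crossover gene, and Btbd18 and Gtsf1 of the piRNA pathway. The body of Btbd18, however, was 61.0% type 3. In type 3 were Dnmt3c, Dnmt3l, Exd1 and Fkbp6, of which Dnmt3c, a DNA methyltransferase of transposons, is listed as a pseudogene in the gene table used. The body of Dnmt3l was 87.3% type 1. In type 4 were Stra8, the trigger of meiotic entry (body wholly in type 4), and Majin, a telomere attachment gene. Mei4, Meioc and Spata22 took type 5, and Pld6, the mitochondrial piRNA nuclease gene, type 2.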

How the data were processed

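H2Aub and H3K27me3 CUT&RUN libraries were processed on mm10, and the submitters' processing notes name Bowtie2 2.3.4.3, deepTools 3.0.2, Trim Galore 0.4.5 and Picard 2.8.0. The value used is the type label, 1 to 5, of the ChromHMM segmentation that the authors deposited for the whole series. ChromHMM cuts a genome into stretches of like signal with a hidden Markov model. No source used here gives its version, its input libraries or a key to the types. All 31563 segments end at multiples of 5 kb. In 261 bins where 2 segments overlapped, the shorter was used.

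Gene positions came from a RefSeq table of GRCm38.p6, leaving out 333 genes on separate scaffolds. All 35 members matched by symbol, and 3 of 46 further pathway genes by synonym. Shares of types were computed with Python 3.11.15, numpy 2.4.6 and pandas 2.3.3, and the code was tested on simulated segmentations. Where shares tied, the lower type number was taken.

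The members and lists were chosen with earlier results of these data known. All members are named, and of further pathway genes the first 4 in alphabetical order in each type. The comparison of start and body was chosen after seeing the data. Alternatives varied the stretch, the overlap rule, the membership, the motif and the measure of CG.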

Additional observations from a re-analysis of the deposited data

How the results depend on the processing

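The main counts, by windows of the gene with 20 kb on each side, gave other counts by the start site bin, where only 31 members (14 meiosis and 12 piRNA genes) had a start, Tdrd6 of type 4 being one without. There, type 1 held 5 members in place of 12 and 3 meiosis genes in place of 9, type 3 held 9 meiosis genes in place of 4, type 2 held 0 members and 0 piRNA genes in place of 1, and type 4 held 1 piRNA gene in place of 2. With only genes at least 90% in 1 type, 13 members were left, and types 1, 2, 3 and 4 held 2, 0, 8 and 3. Of these 4 were meiosis genes (1, 2 and 1 in types 1, 3 and 4) and 7 were piRNA genes (0, 0, 6 and 1 in types 1, 2, 3 and 4). Type 5 held 1 member, Dazl, in place of 0 by the body alone, by the body with 5 kb on each side and by the middle bin. Counting Tex15 and Stk31 with the piRNA genes gave 3 of 16 in type 1 in place of 1 of 14. The longer segment in overlaps changed the type of 0 members. Promoters with either motif numbered 19 of 31 (61.3%, against 31.6% of all promoters), with CACGTG 12 and with both 6. Counts of starts in type 3, alone or with a body in type 1, stayed within 1.5 times of the main count under the settings added after seeing the data (the most downstream start, the longer segment, no shared start bins, only genes of at least 20 kb). No paired analysis was possible because the segmentation has no column for any library, and for the same reason no replicate could be left out. Depth is unknown, and borders are resolved to 5 kb at best.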

Other observations

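Among the further pathway genes with a start, 15 of 25 other meiosis genes (60.0%) and 6 of 8 other piRNA genes started in type 3, against 39.8% of protein-coding genes. A start in type 3 with a body mostly in type 1 was found in 4 of the 25 (16%) and 1 of the 8, against 6.54% of protein-coding genes. Among protein-coding genes of at least 20 kb it was 11.5%, and the 25 had a median body of 26.3 kb, against 17.3 kb. TCCCGC stood in 13 of the 25 other meiosis promoters (52.0%, against 26.4% of all) and CACGTG in 5 (20.0%, against 7.97%). In the 8 other piRNA promoters each motif stood in 2 (25%). No test was made of these counts.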
